A study of Homo sapiens with 6 samples.

Results

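BDNF, NTF3, NTRK2, NTRK3, NGFR, SORT1, RET and GFRA2 are 8 genes for neurotrophins, their receptors and the related RET system. They were taken by gene name from a table of 58395 genes, where each name stood for 1 Ensembl gene, and 6 of the 8 had enough reads to be tested. RNA was sequenced from SH-SY5Y cells, a human neuroblastoma line of sympathetic origin, in 3 libraries labelled Tau (plasmid for the 0N4R isoform of Tau) and 3 labelled control (empty plasmid of the same kind). All cells were transfected as a population and then received retinoic acid (10 µM) over 5 days and BDNF (50 ng/mL) over 15 days without serum, so every level below was measured under added BDNF and no library lacks it. No source states that replicates were separate cultures, and p-values therefore measure the spread between these 6 libraries only.

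Neurotrophins are secreted as precursors that proteases cleave. The mature forms bind Trk receptor tyrosine kinases, with BDNF and neurotrophin-4 preferring TrkB (NTRK2) and neurotrophin-3 preferring TrkC (NTRK3), and these kinases signal through Ras-MAPK, PI3K-Akt and phospholipase C gamma. The p75 receptor (NGFR) binds all of them with lower affinity and, together with sortilin (SORT1), binds the uncleaved precursors, while RET answers to ligands of the GDNF family that are presented by GFRA co-receptors. Retinoic acid is known to raise TrkB in SH-SY5Y cells, which is why BDNF can follow it in differentiation protocols.

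Of the 6 tested members, NGFR was the gene called between the groups, higher in Tau by 2.48-fold, and BDNF, NTRK2, SORT1, RET and GFRA2 were not called. A call needed an adjusted p under 0.1 in edgeR's quasi-likelihood test together with a log2 fold change beyond 0.5 in size, and 17.7% of the 16778 tested genes met it in these libraries (9.31% higher, 8.38% lower), so 1 call among 6 is close to that background. NTF3 and NTRK3 had 33 and 28 reads in all 6 libraries together and fell below the low-count filter. Levels are given as CPM (reads scaled to library size with TMM factors) unless RPKM is named.

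**Figure D1:**
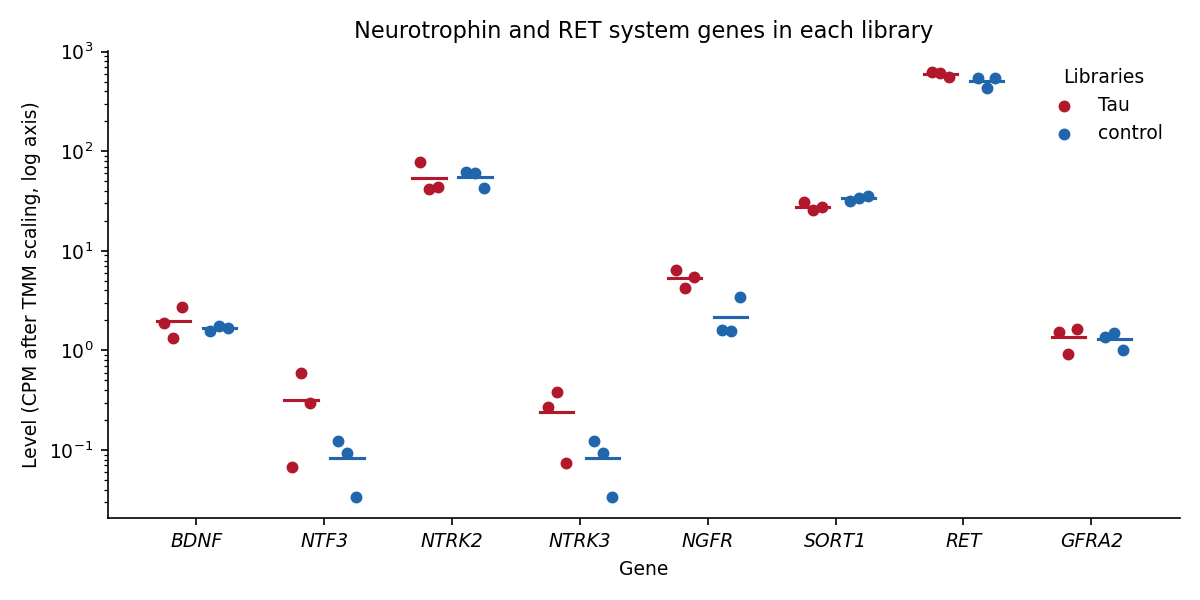
Each point is the level of a gene in 1 library, in CPM after TMM scaling on a log axis, with Tau in red to the left of control in blue and a bar at each group mean (n = 3 libraries per group). NGFR separates the groups (4.29 to 6.38 CPM in Tau, 1.56 to 3.405 CPM in control), RET stands far above the other genes, and NTF3 and NTRK3 lie under 0.6 CPM.

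Library totals ran from 27945481 to 31706415 reads. Mitochondrially encoded genes took 45.8 to 57.8% of the reads in Tau and 30.5 to 45.6% in control, and the log2 fold change of the tested genes correlated across genes with transcript GC content (Spearman 0.47 over 16663 genes, which are not independent replicates). MAPT, the gene for Tau, was not higher in Tau (34.6, 32.6 and 34.6 CPM, against 34.8, 51.9 and 41.5 CPM in control, log2 fold change -0.33, SE 0.18, edgeR adjusted p = 0.242), and it was called lower with the GC trend removed (-0.59, adjusted p = 0.0985, edgeR), so directions are those of the labels. Of the noradrenergic markers that identify the line, 11 summed to 2616 to 2946 CPM in Tau and 2933 to 3926 CPM in control, with 2 of 9 tested called lower and none higher. That is 22.2% called, against 17.7% of all tested genes (8.38% called lower). TH, for tyrosine hydroxylase, had 68 reads in all, and the Schwann and glial genes SOX10, GFAP and CDH19 had none in any library.

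Per unit of gene length RET led the 8 genes with 79.9 ± 10.7 RPKM (SD over 6 libraries), above 98.3% of the tested genes, and exceeded SORT1, the next, by 23.1-fold on the same scale. SORT1 had 3.46 ± 1.001 RPKM and NTRK2 2.78 ± 1.07 RPKM, and these neighbours overlapped between libraries. NGFR followed with 0.887 ± 0.454 RPKM and also overlapped with NTRK2. GFRA2 (0.240 ± 0.0794 RPKM) and BDNF (0.239 ± 0.0650 RPKM) could not be ordered, NTF3 had 0.0607 ± 0.0525 RPKM, and NTRK3 came last with 0.00578 ± 0.00409 RPKM. The gene lengths that the RPKM values imply are 20.4 kb for NTRK2 and 26.8 kb for NTRK3, against 4.15 kb for NGFR, so a transcript shorter than the whole gene model is ranked too low on this scale. Counts per gene also do not separate full-length TrkB or TrkC from forms without the kinase domain.

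Among the ligands, BDNF transcripts were scarce and the gene was not called. BDNF lies on chromosome 11 (GRCh38, 27654893 to 27722058, minus strand) and was counted with 56, 32 and 74 reads in Tau, against 51, 75 and 49 reads in control. These are 1.88, 1.34 and 2.71 CPM in Tau and 1.58, 1.77 and 1.67 CPM in control, so both the highest and the lowest library were Tau libraries. The log2 fold change was 0.25 (SE 0.30, with a 95% interval of -0.40 to 0.90, edgeR adjusted p = 0.615), and it was -0.09 with scaling to total counts. Its antisense gene BDNF-AS shares 988 exonic bases with it and had 21, 13 and 15 reads in Tau, against 11, 17 and 11 reads in control. The strand setting of the authors' count is not stated, so reads from the shared bases cannot be assigned.

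NTF3, the gene for neurotrophin-3 on chromosome 12 (5432108 to 5521536, plus strand), had 2, 14 and 8 reads in Tau and 4, 4 and 1 reads in control. The groups overlapped, since Tau replicate 1 lay between the control libraries. With no low-count filter edgeR gave NTF3 a log2 fold change of 1.77 and an adjusted p = 0.0675, a call that rests on these 33 reads, and DESeq2 gave it no adjusted p. At this depth a difference in NTF3 can be described only by its reads.

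NTF4, the gene for neurotrophin-4, the other preferred ligand of TrkB, was as scarce. It had 0.363 ± 0.0591 CPM in Tau and 0.144 ± 0.00945 CPM in control (SD, n = 3 each), from 44 reads in all, and was not tested.

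NTRK2, the gene for TrkB, was not called. It lies on chromosome 9 (84668375 to 85095751, plus strand). It held 77.2, 41.6 and 44.1 CPM in Tau and 61.9, 60.0 and 42.8 CPM in control, so Tau replicate 1 was the highest library and the remaining Tau libraries lay beside control replicate 3. The log2 fold change was -0.01 (SE 0.25, with a 95% interval of -0.55 to 0.52, edgeR adjusted p = 0.975). Without Tau replicate 1 it was -0.33 (adjusted p = 0.306), and without Tau replicate 2 it was 0.13 (adjusted p = 0.827, edgeR).

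NTRK3, for TrkC on chromosome 15 (87859751 to 88256791, minus strand), gave 8, 9 and 2 reads in Tau and 4, 4 and 1 reads in control. With no low-count filter its log2 fold change was 1.41 (adjusted p = 0.218, edgeR). The cells thus held transcripts of TrkB and almost none of TrkC, in both groups.

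In CPM, NGFR was higher in every Tau library than in any control library. In RPKM the groups overlapped, since Tau replicate 2 (0.792) lay below control replicate 3 (0.854). The gene lies on chromosome 17 (49495293 to 49515008, plus strand) and was counted with 190, 102 and 150 reads in Tau, against 52, 66 and 100 reads in control. In CPM these are 6.38, 4.29 and 5.50 in Tau and 1.61, 1.56 and 3.405 in control, with control replicate 3 nearest to the Tau libraries. The means were 5.39 ± 1.05 CPM in Tau and 2.19 ± 1.05 CPM in control (SD, n = 3 each). The log2 fold change was 1.31 (SE 0.32, with a 95% interval of 0.62 to 2.01, edgeR adjusted p = 0.0297). Groups that do not overlap are common here, since 32.9% of all tested genes show them (16.1% with Tau above control).

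The NGFR transcript has a GC content of 62.9%, against a median of 47.9% over the tested genes, and higher GC content went with higher values in Tau across genes. Per library, the Spearman correlation of GC content with the deviation of log2 CPM from each gene's mean was 0.433, 0.262 and 0.323 in Tau. In control it was -0.52, -0.371 and 0.12, with control replicate 3 nearest to the Tau libraries. With the GC trend removed NGFR was still called (log2 fold change 0.97, adjusted p = 0.0687, edgeR), and with total counts it was 1.03 (adjusted p = 0.0947, edgeR). The call held in 16 of 19 alternatives, and leaving out control replicate 1 was among the 3 that ended it (log2 fold change 1.13, adjusted p = 0.155, edgeR, with 0.000156 to 0.155 over its 19 alternatives in edgeR, DESeq2 and limma). The genes annotated over NGFR on the other strand had 1 read in all 6 libraries. p75 is also a marker of Schwann cells, whose defining gene SOX10 had no reads, while ERBB3 of the same list was called higher (2.80 ± 0.390 CPM in Tau, 0.784 ± 0.267 CPM in control, SD, n = 3 each, log2 fold change 1.85, SE 0.32, adjusted p = 0.0094, edgeR). The summed level of 7 Schwann and glial markers was 4.95 to 6.177 CPM in Tau and 3.184 to 3.847 CPM in control, and their part in the NGFR difference was not tested. Of the 3 tested markers in this list ERBB3 was called and 2 were not (33.3% called, against 17.7% of all tested genes). All Tau libraries lay above all control libraries in 2 of them and below in 1, orders found in 16.1% and 16.8% of all tested genes. The summed level of the 10 mesenchymal neuroblastoma markers was 535.5 to 565.3 CPM in Tau and 624.5 to 634.1 CPM in control. None of the 7 tested was called by edgeR (17.7% of all tested genes were), and 1 had an unadjusted p under 0.05. Of all 16778 tested genes, 4863 had such a p in the same test.

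**Figure D2:**
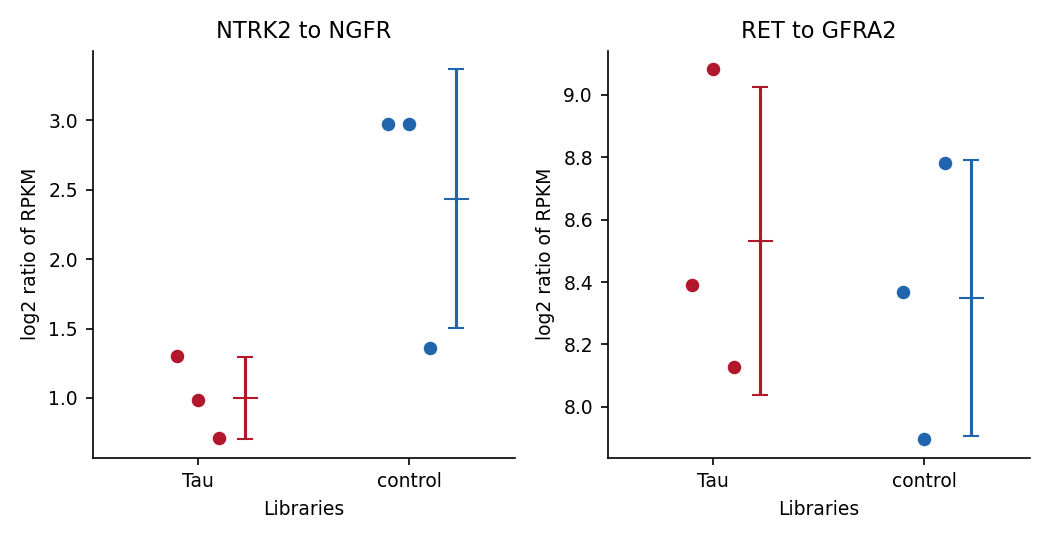
Log2 ratio of the RPKM values of NTRK2 to NGFR (left) and of RET to GFRA2 (right) in each library (points, Tau in red on the left and control in blue), with the mean and SD of each group beside the points (n = 3 each). The NTRK2 to NGFR ratio lay at 0.709 to 1.303 in Tau and 1.358 to 2.974 in control, and the RET to GFRA2 ratios of the groups overlapped.

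The balance of TrkB and p75 transcripts was compared within each library, a measure that scaling between libraries does not touch, although the GC contents of the transcripts differ (45.1% for NTRK2, 62.9% for NGFR). NTRK2 exceeded NGFR in RPKM by 2.47, 1.98 and 1.63 times in Tau and by 7.84, 7.86 and 2.56 times in control. RPKM divides by the implied gene lengths (20.4 kb for NTRK2, 4.15 kb for NGFR), so the size of this excess depends on them. The log2 difference between the groups does not, and was -1.44 in CPM too. On the log2 scale the ratio was 0.999 ± 0.297 in Tau and 2.435 ± 0.932 in control (SD, n = 3 each), a difference of -1.44. No Tau library reached the control values, with control replicate 3 the nearest, and the exact two-sided permutation test gave p = 0.1, the smallest that 3 against 3 libraries allow. The difference ran from -1.97 to -1.17 when 1 library was left out. NGFR counts were read in the main comparison too, so this ratio is not a separate line of evidence on NGFR.

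SORT1, for sortilin, a sorting receptor that binds proneurotrophins and carries cargo to lysosomes, was not called. The gene lies on chromosome 1 (109309568 to 109397918, minus strand). It had 30.65, 25.6 and 27.4 CPM in Tau and 31.8, 33.8 and 35.3 CPM in control, so all Tau libraries lay below all control libraries by small steps. This order was found in 16.8% of all tested genes. In RPKM the groups overlapped, since Tau replicate 1 (3.57) lay above control replicate 1 (3.55). The log2 fold change was -0.27 (SE 0.16, with a 95% interval of -0.62 to 0.08, edgeR adjusted p = 0.282). It was negative in all 19 alternatives (-0.61 to -0.20) and called in none of them.

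Of the other partners of the neurotrophin receptors, LINGO1 was the 1 called. LINGO1, a co-receptor that joins p75 in the Nogo receptor complex, was higher, with 2.50 ± 0.321 CPM in Tau and 1.22 ± 0.385 CPM in control (SD, n = 3 each, log2 fold change 1.04, SE 0.29, adjusted p = 0.0466, edgeR). RTN4R, the Nogo receptor itself, had 4.81 ± 0.695 CPM in Tau and 7.06 ± 0.991 CPM in control and was not called (log2 fold change -0.55, SE 0.21, adjusted p = 0.116, edgeR). Among the relatives of sortilin, SORCS1 had 70.8 ± 19.3 CPM in Tau and 98.0 ± 22.2 CPM in control (SD, n = 3 each) and was not called (log2 fold change -0.47, SE 0.23, adjusted p = 0.199, edgeR). SORCS2 (1.25, adjusted p = 0.111), SORCS3 (-0.06, adjusted p = 0.927) and SORL1 (0.07, adjusted p = 0.865) were not called by edgeR. LINGO1 kept its call in 9 of 19 alternatives. Among others, it lost the call with the GC trend removed, with total counts, and without control replicate 1 or any 1 of the Tau libraries. Its highest adjusted p over the 19 alternatives was 0.311 (edgeR, replicate block with total counts). Over 9 tested receptors and partners 2 were called higher and none lower (22.2%, against 17.7% of all tested genes called), with a median log2 fold change of -0.015, against -0.03 over all tested genes. With total counts, and likewise with the GC trend removed, 1 was called higher and 1 lower.

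**Figure D3:**
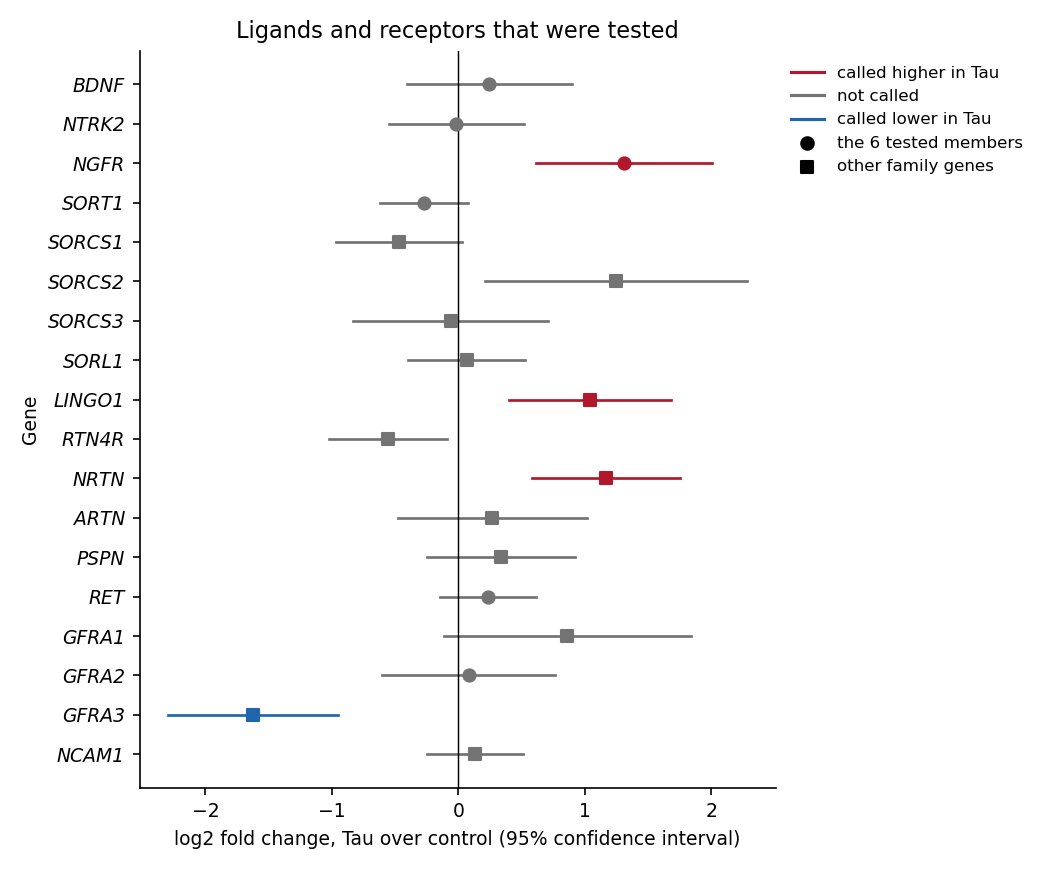
Log2 fold change of Tau over control with its 95% confidence interval (edgeR) for 18 tested ligand and receptor genes of the neurotrophin and GDNF families, with circles for the 6 tested members and squares for other family genes. NGFR (1.31), NRTN (1.17) and LINGO1 (1.04) were called higher, GFRA3 (-1.62) was called lower, and the intervals of NTRK2, RET, BDNF, GFRA2 and SORT1 include 0.

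RET, the most abundant of the 8 per length, was not called. The gene lies on chromosome 10 (43077064 to 43130351, plus strand) and had 626.1, 605.6 and 557.8 CPM in Tau and 542.8, 434.7 and 542.7 CPM in control. All Tau libraries were above all control libraries on this scale, as in 16.1% of all tested genes, with control replicate 2 the lowest. The log2 fold change was 0.24 (SE 0.18, with a 95% interval of -0.15 to 0.62, edgeR adjusted p = 0.398). Scaled to total counts, which include the mitochondrial genes, the sign turned (-0.08, adjusted p = 0.85, edgeR), and in RPKM the means were 77.8 ± 16.3 in Tau and 82.0 ± 2.01 in control (SD, n = 3 each).

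GFRA2, which presents neurturin to RET, was counted on chromosome 8 (21690398 to 21812357, minus strand) with 46, 22 and 45 reads in Tau and 44, 64 and 30 reads in control. These are 1.54, 0.924 and 1.65 CPM in Tau and 1.36, 1.51 and 1.02 CPM in control, so the groups overlapped fully. The log2 fold change was 0.08 (SE 0.32, with a 95% interval of -0.60 to 0.77, edgeR adjusted p = 0.886), and it was -0.25 with total counts and -0.11 with the GC trend removed. RET exceeded GFRA2 in RPKM by 335.3, 541.9 and 279.6 times in Tau and by 330.1, 238.2 and 439.5 times in control. The log2 ratio was 8.53 ± 0.49 in Tau and 8.35 ± 0.44 in control (SD, n = 3 each, exact two-sided permutation p = 0.6, where 0.1 is the smallest possible).

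GFRA3, the co-receptor for artemin, was the gene of the GDNF family with the largest change among the 8 tested. It had 3.51 ± 0.760 CPM in Tau and 10.8 ± 4.91 CPM in control (SD, n = 3 each, log2 fold change -1.62, SE 0.31, adjusted p = 0.0139, edgeR) and was called lower in all 19 alternatives (-2.01 to -1.19). Neurturin (NRTN), the ligand of GFRA2, was called higher, with 4.55 ± 0.824 CPM in Tau and 2.03 ± 0.551 CPM in control (SD, n = 3 each, log2 fold change 1.17, SE 0.27, adjusted p = 0.0252, edgeR). NRTN has a GC content of 73.8% (60.0% for GFRA3), and it lost its call with the GC trend removed, with total counts, with RPM, and without control replicate 1 (highest adjusted p over its alternatives 0.308, edgeR). Artemin (ARTN, log2 fold change 0.27, adjusted p = 0.634), persephin (PSPN, 0.34, adjusted p = 0.432), GFRA1 (0.86, adjusted p = 0.225) and NCAM1 (0.13, adjusted p = 0.643) were not called by edgeR. GDNF itself had 3 reads in all, and GFRA4 and GFRAL had none.

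The proteases that cut proneurotrophins held 3 genes called higher and none called lower of 8 tested (37.5%, against 9.31% of all tested genes called higher), with a median log2 fold change of 0.69, against -0.03 over all tested genes. Furin, which cleaves proneurotrophins in the Golgi, had 9.78 ± 2.07 CPM in Tau and 5.41 ± 0.648 CPM in control (SD, n = 3 each, FURIN log2 fold change 0.86, SE 0.22, adjusted p = 0.0329, edgeR). PCSK2, a convertase of dense-core granules, had 2.56 ± 0.655 CPM in Tau and 0.935 ± 0.105 CPM in control (SD, n = 3 each, log2 fold change 1.45, SE 0.29, adjusted p = 0.0162, edgeR). PCSK4, known mainly from germ cells, was the remaining call (1.06, SE 0.28, adjusted p = 0.0403, edgeR). PLAT, the tissue plasminogen activator that starts extracellular cleavage of proBDNF, was not called (0.53, SE 0.30, adjusted p = 0.263, edgeR). The count fell to 1 with total counts or with the GC trend removed and to 0 without control replicate 1, and it was 6 without control replicate 3. All tested genes together had 221 calls without control replicate 1 and 5108 without control replicate 3, against 2968 with all libraries. PCSK2 was called in 17 of 19 alternatives, and leaving out control replicate 1 was 1 of the 2 that ended its call (adjusted p = 0.103, and at most 0.125 over its alternatives, edgeR).

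Below the receptors, adaptors moved in both directions. Of 24 tested adaptors 2 were called higher and 4 lower, a share of 25% against the 17.7% of all genes. SHC1, the adaptor that links Trk and RET to Grb2, had 282.5 ± 29.6 CPM in Tau and 162.9 ± 5.02 CPM in control (SD, n = 3 each, log2 fold change 0.79, SE 0.17, adjusted p = 0.0188, edgeR), and its relative SHC2 was also higher (0.78, SE 0.22, adjusted p = 0.0478, edgeR). DOK6, which binds RET (-0.72, SE 0.20, adjusted p = 0.0442), IRS2, an adaptor of insulin receptors (-0.70, SE 0.21, adjusted p = 0.0532), and KIDINS220, a membrane scaffold phosphorylated by Trk kinases (-0.55, SE 0.19, adjusted p = 0.0840), were lower by edgeR, as was IRS1. Scaled to total counts 7 adaptors were lower and none higher, with the GC trend removed 1 was higher and 1 lower, and without control replicate 1 none was called. Leaving out Tau replicate 1 left 2 calls, Tau replicate 2 or Tau replicate 3 left 1, control replicate 2 left 2, and control replicate 3 gave 10. The calls over all tested genes moved likewise, from 2968 to 221 without control replicate 1 and to 5108 without control replicate 3.

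In the Ras-MAPK and PI3K-Akt core 7 of 28 tested genes were lower and 1 was higher (28.6% called, against 17.7% of all tested genes). PIK3R1, a regulatory subunit of PI3-kinase, had 12.1 ± 0.651 CPM in Tau and 22.1 ± 6.14 CPM in control (SD, n = 3 each, log2 fold change -0.87, SE 0.21, adjusted p = 0.0304, edgeR). By edgeR BRAF (-0.69, SE 0.18, adjusted p = 0.0361) and NRAS (-0.65, SE 0.17, adjusted p = 0.0369) were lower, while the ribosomal S6 kinase RPS6KA1 was called higher (0.54, SE 0.18, adjusted p = 0.0752). The 7 lower genes, which also include CREB1, SOS2, RPS6KA3 and RPS6KA5, have GC contents of 35.9 to 40.7%, and RPS6KA1 has 56.9%. With the GC trend removed 1 of the core genes was called, and it was lower, and with total counts 10 were lower and none higher. Without 1 library the core had 0 calls (control replicate 1) to 11 calls (control replicate 3). Among all tested genes these same settings gave 221 and 5108 calls, against 2968 with all libraries. The p75 adaptor list, 13 cytoplasmic partners of the receptor, held no call in edgeR with TMM scaling or in DESeq2. The list includes RHOA and the kinases MAPK8, MAPK9 and MAPK10. An unadjusted p under 0.05 in edgeR was found for 1 of the 13, and for 4863 of all 16778 tested genes (17.7% were called). TRADD (0.54, adjusted p = 0.123, edgeR) had the largest change, and MAGED1 (-0.06, adjusted p = 0.881, edgeR) and BEX3 (-0.15, adjusted p = 0.694, edgeR) were near 0.

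**Figure D4:**
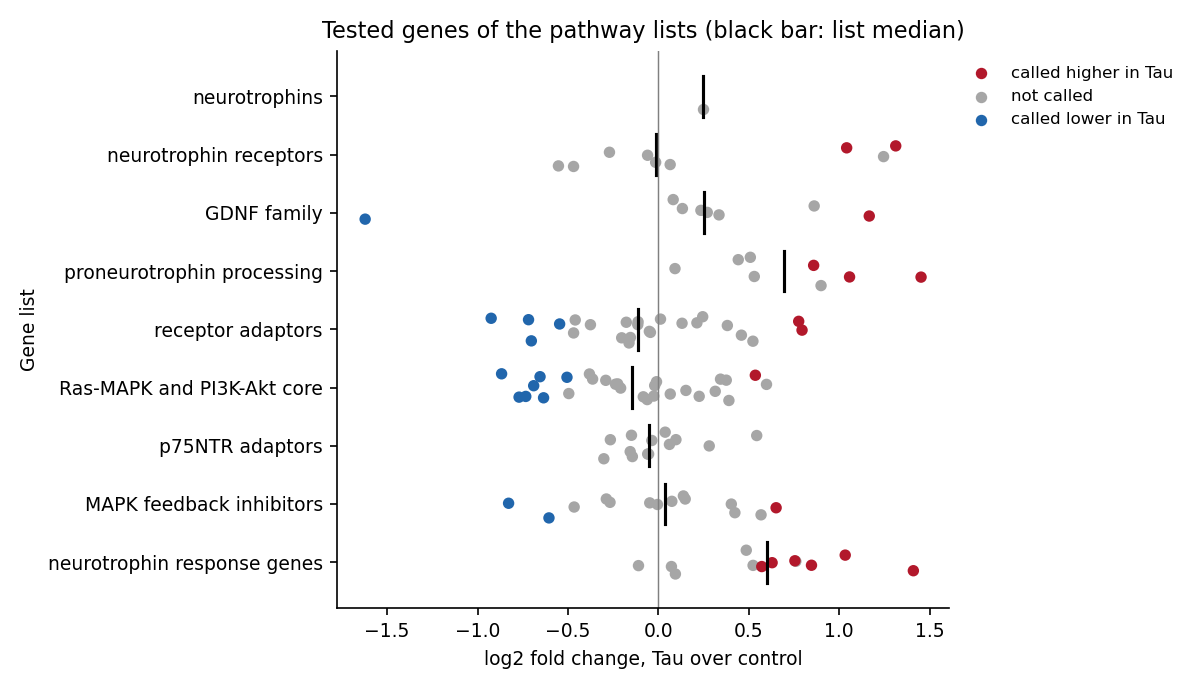
Log2 fold change of Tau over control for each tested gene of 9 lists of the neurotrophin and GDNF pathways, with genes called higher in red, called lower in blue and not called in grey, and a black bar at each list's median. The neurotrophin response genes (median 0.60) and the processing proteases (median 0.69) lie to the right, and the Ras-MAPK and PI3K-Akt core (median -0.15) lies slightly to the left.

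Inhibitors that receptor kinases induce as feedback gave 1 higher and 2 lower genes of 14 tested (21.4% called, near the 17.7% of all tested genes). SPRY1 was higher (log2 fold change 0.65, SE 0.21, adjusted p = 0.0736), and SPRED1 (-0.83, SE 0.22, adjusted p = 0.0361) and the ubiquitin ligase CBLB (-0.61, SE 0.20, adjusted p = 0.0713) were lower by edgeR. DUSP6, the phosphatase that limits ERK and a common readout of its activity, had 140.9 ± 6.26 CPM in Tau and 141.5 ± 25.7 CPM in control (SD, n = 3 each, log2 fold change -0.0049, SE 0.18, adjusted p = 0.989, edgeR). The list held 3 lower and no higher genes with total counts. It had 1 call, higher, with the GC trend removed, none without control replicate 1, 1 without each of control replicate 2 and the Tau libraries, and 5 without control replicate 3. For all tested genes the calls went from 2968 to 221 without control replicate 1 and to 5108 without control replicate 3.

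Genes known to respond to neurotrophins in neurons or in PC12 cells held 6 higher and no lower genes of 12 tested (50%, against 9.31% of all tested genes called higher), with a median log2 fold change of 0.60, against -0.03 over all tested genes. ARC, an immediate early gene of synapses, had 53.8 ± 19.8 CPM in Tau and 20.3 ± 11.2 CPM in control (SD, n = 3 each, log2 fold change 1.41, SE 0.36, adjusted p = 0.0340, edgeR). By edgeR IER2 (0.76, SE 0.21, adjusted p = 0.0437) and the orphan receptor NR4A1 (0.85, SE 0.24, adjusted p = 0.0485) were also higher. EGR1 (1.03, adjusted p = 0.0664), NPY (0.57, adjusted p = 0.0871) and PLAUR (0.63, adjusted p = 0.0795), named after their values were seen, complete the 6 calls by edgeR. VGF, a secreted protein known as a neurotrophin-induced gene of PC12 cells, had 644.9 ± 76.3 CPM in Tau and 380.8 ± 185.9 CPM in control (SD, n = 3 each) and was not called (0.76, SE 0.29, adjusted p = 0.110, edgeR). FOS (0.52, adjusted p = 0.392), FOSB (-0.11, adjusted p = 0.909) and SCG2 (0.07, adjusted p = 0.849) were not called by edgeR.

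The response genes called higher have GC contents of 55.3 to 66.9%, above the median of 47.9% over the tested genes. Their count was 1 with the GC trend removed and 1 with total counts, ARC in each case. Without 1 library it was 0 (control replicate 1 or Tau replicate 3), 1 (Tau replicate 2), 2 (control replicate 2), 3 (Tau replicate 1) or 8 (control replicate 3). Over all tested genes the calls were 2968 with all libraries, 221 without control replicate 1 and 5108 without control replicate 3.

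Promoter windows of 300 bases, 250 before to 50 after a RefSeq start site (GRCh38.p14), were searched on both strands for the cAMP response element TGACGTCA, bound by CREB, and the EGR site GCGTGGGCG. No window of these genes held both motifs. None of the 16 windows of 6 members held either motif, and NGFR and GFRA2 had no window. Among 16 windows of 13 response genes VGF held the cAMP response element and PLAUR the EGR site, against 1.85% and 0.795% of all 35116 windows. The stretches around these matches are shown because no other response gene window had a match (7 response genes, ARC among them, had no window), with the motif in capitals and the strand of the gene from 5′ to 3′.
VGF (chr7:101165617-101165672, minus strand): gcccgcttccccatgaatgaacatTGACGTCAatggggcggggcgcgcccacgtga
PLAUR (chr19:43670227-43670283, minus strand, motif on the opposite strand): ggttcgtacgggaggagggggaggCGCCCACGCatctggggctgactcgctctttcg
These matches were chosen after the values were seen and describe letters in a window, not binding.

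The members did not follow each other across the 6 libraries as a group. Pearson correlations of log2 CPM, given as a description over libraries that also share the group difference, were 0.78 between NGFR and RET, 0.76 between BDNF and GFRA2, -0.54 between NGFR and SORT1 and -0.16 between NTRK2 and NGFR. The genes with the pattern most like NGFR were AGT (r = 0.997) and UCP2 (r = 0.995), and 554 of 10025 genes compared had r over 0.9 with it. NTRK2 was most like RAB32 (r = 0.995) and MRM3 (r = 0.992), RET most like ARHGEF40 (r = 0.992) and LRP8 (r = 0.989), and SORT1 most like ZNF398 (r = 0.98) and CCDC32 (r = 0.98). BDNF (AGAP1, r = 0.951, and PHYH, r = 0.939) and GFRA2 (TXNRD2, r = 0.951, and CLUAP1, r = 0.947), with few reads, had 2 and 8 genes over 0.9.

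**Figure D5:**
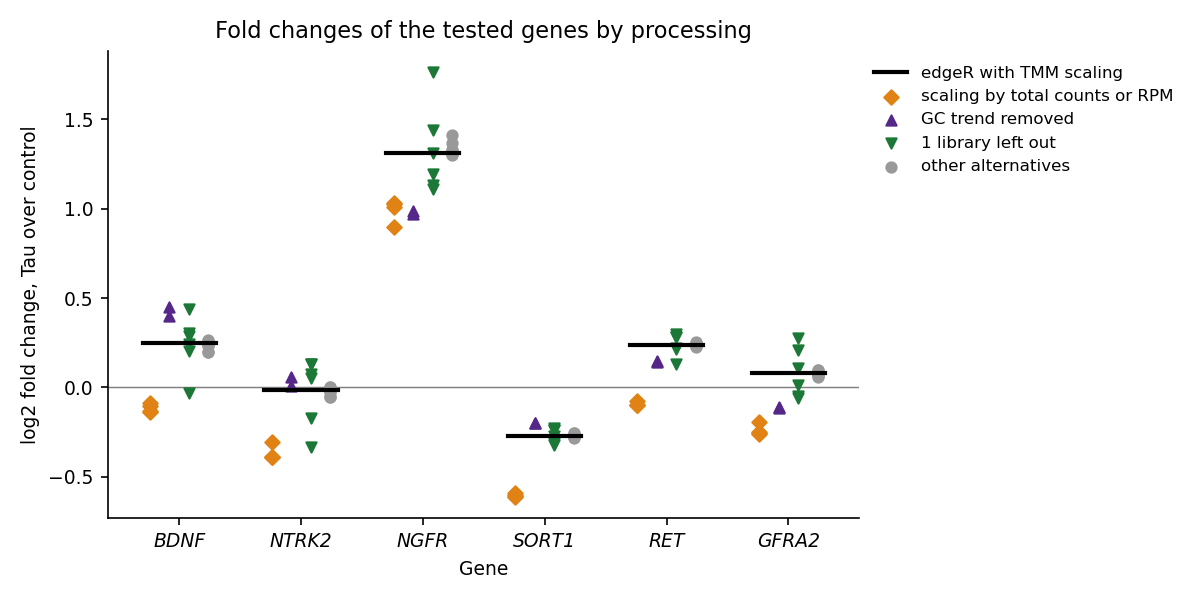
Log2 fold change of Tau over control for the 6 tested members in edgeR with TMM scaling (black bars) and in 19 alternatives each, with scaling by total counts or RPM as orange diamonds, the GC trend removed as purple triangles, 1 library left out as green triangles and other alternatives as grey circles. NGFR stays between 0.90 and 1.765 and SORT1 below 0, while BDNF, NTRK2, RET and GFRA2 fall on both sides of 0.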

How the data were processed

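By the paper's methods and the labels, the authors aligned single reads of 51 cycles to GRCh38 (Ensembl 92) with TopHat2 2.1.0, and counted them per gene with featureCounts 1.5.0 (bcl2fastq 1.8.4, R 3.4.1), with the strand setting not given. The deposited counts are raw. The authors made RPM values by dividing the counts by each library's total, and RPKM values by dividing RPM by a gene length.

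Counts were tested here with edgeR 4.0.16 (R 4.3.3, quasi-likelihood, TMM, robust, filterByExpr), with Benjamini-Hochberg adjustment over 16778 genes, and a call needs an adjusted p under 0.1 with a log2 fold change beyond 0.5 in size. A prior count of 2 entered log2 CPM. RPKM served for levels and ratios. Positions and GC content come from GENCODE 44 (longest transcript), which shares the build. The tests were tested on simulated data. DESeq2 1.42.0, limma 3.58.1 and other scalings, filters, a GC trend removed by lowess (span 0.3), a replicate block and leaving out each library were alternatives. Between replicates of the same group the chi-square was 15.3 to 186.9 times its degrees of freedom, so none was a repeat of another's reads. Pairs across groups were not compared, and separate libraries from 1 culture are not excluded.

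Members and lists were chosen with earlier results of these data known. Named are all members, the other ligands and receptors, the 3 genes of each list with the smallest p among calls in each direction, and the 2 genes most correlated with each tested member (mean of at least 5 CPM). Other list genes given with values were picked after these were seen. Some ligand, receptor and marker genes are not reported here and were left out of the list counts. The study's other assays were not analysed here.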

Additional observations from a re-analysis of the deposited data

How the results depend on the processing

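The number of genes called, 2968, became 1762 with the GC trend removed, 468 with a replicate block and the GC trend removed, 1533 with a replicate block and total counts, and 221 to 5108 when 1 library was left out. Scaling to total counts moved the median log2 fold change of all genes to -0.36, against -0.03, and the calls to 546 higher and 2791 lower, against 1562 and 1406. BDNF turned negative with total counts (-0.0897), RPM in limma (-0.10 with 0.5 and -0.14 with 0.1 added) and the block with total counts (-0.13), and ran from -0.0303 to 0.44 without 1 library. NTRK2 turned positive with the filter of 1 CPM (0.0029), the GC trend removed (0.057) and the block with it (0.0089), and ran from -0.33 to 0.13 without 1 library. RET turned negative with total counts (-0.0769), RPM (-0.0964 and -0.0965) and the block with total counts (-0.10). GFRA2 turned negative with total counts (-0.25), RPM (-0.19 and -0.26), the GC trend removed (-0.11), the block with it (-0.12) and the block with total counts (-0.26), and ran from -0.0615 to 0.28 without 1 library. None of these was called in any alternative, and the cause was not tested.

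NGFR lost its call with the replicate block and the GC trend removed (0.99, adjusted p = 0.133) and with the block and total counts (1.03, adjusted p = 0.126, edgeR), and ran from 1.11 to 1.765 without 1 library. The block alone gave 1.37 (adjusted p = 0.00949, edgeR). The deviations of same-numbered libraries from their group means correlated at -0.157, -0.46 and 0.167. These deviations also carry trends of whole libraries, so they cannot decide whether the numbers mark shared cultures or batches. The block gave 2288 calls in all.

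Total counts changed the calls to 1 of the GDNF family, 1 of the processing proteases, 1 of the p75 adaptors (lower) and 1 of the response genes, and turned directions to 1 higher and 1 lower receptor, 10 lower core genes, 7 lower adaptors and 3 lower feedback inhibitors with none higher in these last 3 lists. Removing the GC trend changed them to 1 of the GDNF family, 1 protease, 2 adaptors, 1 core gene, 1 feedback inhibitor and 1 response gene. The replicate block left 5 genes of the Ras-MAPK and PI3K-Akt core and 1 feedback inhibitor. Without 1 library the calls ran from 0 to 3 (receptors), 1 to 2 (GDNF family), 0 to 6 (proteases), 0 to 10 (receptor adaptors), 0 to 11 (core), 0 to 1 (p75 adaptors), 0 to 5 (feedback inhibitors) and 0 to 8 (response genes). NTF3 and NTRK3 have no value in the main test, since they fall below its filter. Few reads limit BDNF, GFRA2, NTF3 and NTRK3.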
